A study of Mus musculus with 6 samples.

Results

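The 10 genes described here encode the LEF/TCF family of DNA-binding factors (Lef1, Tcf7, Tcf7l1 and Tcf7l2), their partner β-catenin (Ctnnb1), the scaffold Axin1, and 4 genes known as feedback targets of Wnt signaling (Axin2, Nkd1, Sp5 and Apcdd1). They were found by symbol among the 43383 rows of an RNA-seq table of mouse neocortical astrocytes, and each of the 10 symbols matched 1 row. The genes were selected on their RPKM values in upper-layer and deep-layer astrocytes, as these were known when the set was drawn up, so their differences between the layers are given as a description. The intervals and calls printed for them rest on the values used to choose them and are not independent tests.

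Astrocytes were sorted as GFP-positive cells from somatosensory cortex of Aldh1l1-eGFP mice (males, 4 weeks of age), in which eGFP marks cells that use the promoter of Aldh1l1, a folate enzyme of astrocytes. Upper-layer astrocytes (ULAs) came from layers II–IV and deep-layer astrocytes (DLAs) from layers V and VI of the same 3 brains, which gave 1 library per layer and brain, 6 in all. Every mouse carried the same transgene and none was treated. The dissected pieces held neither the brain surface with its outermost layer nor the white matter beneath the cortex, and they represent the border between layers IV and V only in part. Values are RPKM, that is, reads on an mRNA divided by its length and by the depth of the library, so that the levels of different genes can be set side by side. The sequencing depth followed from the size of 1 read in short rows (500 bases or less) and ranged from 24.5 to 26.7 M reads in the ULA libraries and from 19.7 M, in DLAs of brain 2, to 29.6 M reads in the DLA libraries.

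The list of 10 astrocyte markers was drawn up with earlier results of these data known. All 10 were above the expression filter in these libraries, with a summed level of 11302 to 12233 RPKM in ULAs and 10685 to 11507 RPKM in DLAs. The 11 endothelial markers summed to at most 1.46 RPKM in ULAs and 3.96 RPKM in DLAs, and the 6 T cell markers to at most 0.69 RPKM in any library. The 9 oligodendrocyte markers were higher in DLAs and summed to 87.1 to 179.0 RPKM in ULAs and 177.6 to 280.6 RPKM in DLAs, with the highest ULA value in brain 3, and 6 of 8 tested markers passed the test in the DLA direction.

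In the canonical Wnt pathway, a Wnt ligand bound to a Frizzled receptor and an Lrp co-receptor disables a complex of Axin, Apc and the kinases Gsk3 and casein kinase 1 that otherwise marks β-catenin for destruction. The β-catenin that accumulates enters the nucleus and binds LEF/TCF proteins, which sit on DNA with Groucho/TLE repressors in its absence. Targets such as Axin2, Nkd1, Sp5, Apcdd1, and in several tissues Lef1 and Tcf7 themselves, are switched on and, in most cases, dampen the signal in turn.

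The 4 factors read DNA through an HMG box, and its coding sequence is much alike in their mRNAs, so it is shown to let a reader judge whether short reads could have been assigned to the wrong factor. The end of the box and the first bases beyond it span 120 coding bases in each gene. They lie at chr3:131200313-131204285 (+ strand, exons 9 and 10) for Lef1, chr11:52256277-52256829 (− strand, exons 8 and 9) for Tcf7, chr6:72630002-72631101 (− strand, exons 11 and 12) for Tcf7l1 and chr19:55919529-55923925 (+ strand, exons 10 and 11) for Tcf7l2, on GRCm38. Capitals mark the bases that differ from Lef1.
Lef1: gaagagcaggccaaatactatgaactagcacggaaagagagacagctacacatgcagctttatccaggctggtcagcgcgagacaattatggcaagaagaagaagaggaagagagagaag
Tcf7: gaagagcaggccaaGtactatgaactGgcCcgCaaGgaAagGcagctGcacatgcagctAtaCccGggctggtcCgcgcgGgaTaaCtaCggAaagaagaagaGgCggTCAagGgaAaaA
Tcf7l1: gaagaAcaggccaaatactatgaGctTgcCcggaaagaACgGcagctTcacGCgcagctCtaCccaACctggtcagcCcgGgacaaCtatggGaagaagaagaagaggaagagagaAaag
Tcf7l2: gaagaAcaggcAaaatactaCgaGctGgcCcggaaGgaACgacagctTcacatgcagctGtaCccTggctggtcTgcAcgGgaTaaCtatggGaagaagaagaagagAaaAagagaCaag
Tcf7 differed from Lef1 at 25 of the 120 bases, Tcf7l2 at 22 and Tcf7l1 at 19. The longest run of bases shared by Lef1 and Tcf7l1 was 23, and over the 6 pairs of factors the longest shared run in the annotated transcripts compared (1 per gene) was between 14 and 23 bases. Some of these transcripts are shorter than the rows of the table, at 2135 bases against 4553 for Tcf7l2 and 1888 against 2784 for Tcf7l1, so the remainder of those rows was not compared. Reads were 36 bases long, and no pair of the 10 transcripts shared a stretch of that length, so a read without mismatches cannot match 2 of these transcripts. The transcripts of Nkd1 (3035 bases against 4459) and Apcdd1 (1888 against 2799) were also shorter than their rows. Matches to the parts of rows left out were not tested.

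Lef1 was the factor whose mRNA level separated the layers. Lef1 lies on mm9 chr3:130813389-130926249 (+ strand, 12 exons), and its level was 18.85, 21.13 and 18.12 RPKM in ULAs and 4.37, 4.09 and 5.46 RPKM in DLAs (brains 1, 2 and 3, here and in all lists of values that follow). Those values rest on 1133 to 1331 reads per ULA library and 198 to 397 reads per DLA library. All ULA values lay above all DLA values, and the ratio of ULA to DLA in the same brain was 4.31, 5.17 and 3.32. The difference on the log2(RPKM + 1) scale was 1.86 (SE 0.14, n = 3 brains), and in bulk RNA fewer cells with Lef1 and less Lef1 mRNA per cell cannot be told apart. In ULAs the Lef1 level exceeded that of 72.5% of the 13999 tested rows, against 34.3% in DLAs. A cDNA clone row of 1124 bases that lies within intron 6 of Lef1 on the same strand, and that was picked out after its values were seen, was also higher in ULAs, at 1.23, 3.01 and 1.76 RPKM against 0.59, 0.44 and 0.80 RPKM. It shares 0 exon bases with Lef1.

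The levels of the other factors overlapped between the layers. Tcf7l2 (mm9 chr19:55816300-56008145, + strand, 17 exons) had the highest mean level of the 10 mRNAs in both layers. It stood at 20.19, 22.32 and 18.67 RPKM in ULAs and 21.19, 18.60 and 23.19 RPKM in DLAs, although Ctnnb1 exceeded it in DLAs of brain 2, at 21.69 RPKM. The layers overlapped, and the log2 difference was −0.04 (SE 0.13, 95% interval −0.32 to 0.25). Tcf7l1 (mm9 chr6:72576374-72738950, − strand, 13 exons), which acts mainly as a repressor, was at 15.31, 16.55 and 15.14 RPKM in ULAs and 19.19, 15.05 and 20.21 RPKM in DLAs. It was lower in ULAs in brains 1 and 3 and slightly higher in brain 2, with a log2 difference of −0.19 (SE 0.13, 95% interval −0.48 to 0.10). An antisense row shares 84 exon bases with Tcf7l1, and whether the counting used strand is not given in the sources used here. Tcf7l2 mRNA is known from oligodendrocytes too, whose markers summed to 87.1 to 179.0 RPKM in ULAs and 177.6 to 280.6 RPKM in DLAs, and their part in the Tcf7l2 level was not tested. Tcf7 (mm9 chr11:52066106-52095752, − strand, 9 exons), the T cell factor that named the family, was low, with 1.19, 1.61 and 0.65 RPKM in ULAs and 1.01, 0.98 and 1.29 RPKM in DLAs, from 39 to 92 reads per library. Its log2 difference was 0.02 (SE 0.20, 95% interval −0.42 to 0.45), so that a moderate change in either direction was not detectable at this depth and number of brains.

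The make-up of the LEF/TCF mRNA pool differed between the layers mainly through Lef1. Per library, Lef1 accounted for 33.9, 34.3 and 34.5% of the summed LEF/TCF RPKM in ULAs and for 9.55, 10.6 and 10.9% in DLAs, that is, 34.2% ± 0.267 against 10.3% ± 0.698 (mean ± SD, n = 3). Tcf7l1 made up 27.7% ± 0.978 of the sum in ULAs and 40.4% ± 1.53 in DLAs, and Tcf7l2 36.0% ± 0.456 and 46.9% ± 1.02. Tcf7 contributed 2.14, 2.61 and 1.24% in ULAs and 2.21, 2.53 and 2.57% in DLAs. Lef1 mRNA was about as abundant as Tcf7l2 mRNA in ULAs (a ratio of 0.950 ± 0.019) and much less abundant in DLAs (0.221 ± 0.015). The ratio of Lef1 to Tcf7l1 was 1.23 ± 0.040 in ULAs and 0.257 ± 0.025 in DLAs, so the order of these 2 factors was the opposite in the layers in all 3 brains. The ratio of Tcf7l1 to Tcf7l2 was 0.758, 0.741 and 0.811 in ULAs and 0.906, 0.809 and 0.871 in DLAs, lower in ULAs in 3 of 3 brains, with ranges that overlapped slightly.

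**Figure D1:**
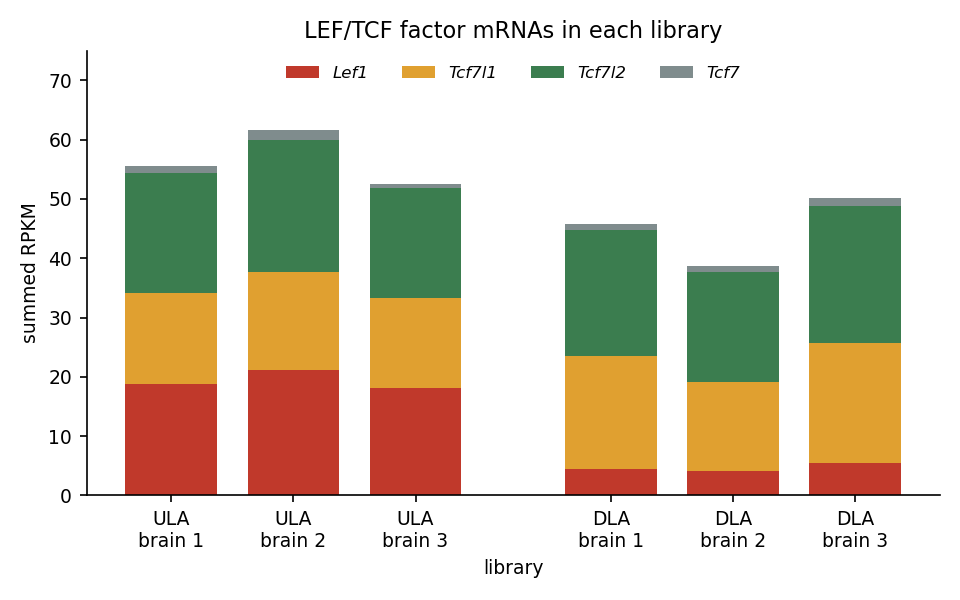
Stacked bars give the RPKM of Lef1, Tcf7l1, Tcf7l2 and Tcf7 in each of the 6 libraries, on a linear axis from 0. The red Lef1 segment is 18.12 to 21.13 RPKM in ULAs and 4.09 to 5.46 RPKM in DLAs, while the ranges of the other segments overlap between the layers.

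The summed LEF/TCF level was 56.6 ± 4.603 RPKM in ULAs and 44.9 ± 5.77 RPKM in DLAs, with ranges of 52.58 to 61.61 and 38.72 to 50.15 RPKM that did not overlap. Without Lef1, the sum was 37.2 ± 3.04 RPKM in ULAs and 40.2 ± 5.13 RPKM in DLAs, and the layers overlapped. The plot of stacked bars shows the same in each library.

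β-catenin and Axin1, which work upstream of the factors, differed between the layers by less than the spread of the brains. Ctnnb1 (mm9 chr9:120842518-120869625, + strand, 15 exons) stood at 17.64, 20.73 and 18.46 RPKM in ULAs and 18.47, 21.69 and 15.17 RPKM in DLAs, a log2 difference of 0.05 (SE 0.12, 95% interval −0.21 to 0.31). Its mRNA level does not report the stability of the protein, which is the regulated step of the pathway. Axin1 (mm9 chr17:26275631-26332756, + strand, 11 exons), the constitutive scaffold of the destruction complex, was at 2.95, 3.45 and 3.31 RPKM in ULAs and 3.31, 3.01 and 3.83 RPKM in DLAs, with a log2 difference of −0.05 (SE 0.14, 95% interval −0.37 to 0.27).

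Of the 4 feedback targets, Nkd1 and Sp5 had ULA values that all lay above the DLA values, Axin2 leaned the same way by a small amount in each brain, and Apcdd1 had no common direction. Of all tested rows, 6.59% had ULA values that all lay above the DLA values (6.41% of rows with a mean RPKM of 0.1 to 1, where Sp5 belongs), and 15.2% were higher in ULAs in 3 of 3 brains, against 23.2% in DLAs, so nothing is read from these counts for 4 genes chosen on the same values. Nkd1 (mm9 chr8:91045243-91118786, + strand, 11 exons), which binds Dishevelled and restrains the signal, was at 5.66, 5.06 and 5.41 RPKM in ULAs and 3.54, 4.32 and 3.52 RPKM in DLAs. The ratios within the brains were 1.60, 1.17 and 1.54, smallest in brain 2, and the log2 difference was 0.41 (SE 0.14), resting on 579 to 644 reads per ULA library and 379 to 465 per DLA library. Axin2 (mm9 chr11:108781663-108812095, + strand, 11 exons), the inducible relative of Axin1 and a widely used readout of the pathway, was at 1.57, 1.35 and 1.79 RPKM in ULAs and 1.31, 1.11 and 1.53 RPKM in DLAs. Axin2 exceeded its DLA level in 3 of 3 brains, by 0.15, 0.16 and 0.14 on the log2(RPKM + 1) scale, while the ranges of the layers overlapped, since the brains differed by more than the layers did. The SE from the fit over all rows was 0.15, with a 95% interval of −0.19 to 0.49. An antisense row shares 207 exon bases with Axin2, at 0.29 to 0.70 RPKM.

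Sp5, a zinc-finger factor that is induced by β-catenin and represses other targets, was the least abundant of the 10. Sp5 (mm9 chr2:70312980-70315783, + strand, 2 exons) was listed at 0.50, 0.46 and 0.55 RPKM in ULAs and 0.28, 0.04 and 0.02 RPKM in DLAs, which correspond to 26, 25 and 31 reads and to 16, 2 and 2 reads. It fell below the mean RPKM of 1 that a row needed to be tested. Summed over the brains, the ratio of ULA to DLA reads, each scaled to library depth, was 4.05 (exact 95% interval 2.46 to 6.97), where the interval covers counting error only, as PCR copies were not told apart. Most DLA reads came from brain 1, and without that brain the ratio was 13.2 (4.87 to 50.0), against 3.48 without brain 2 and 2.62 without brain 3. The layers did not overlap, but the size of the ratio depended on the DLAs of brain 1.

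Sp5 was also the only gene of the set with the letters CTTTGAT, 1 form of the LEF/TCF motif, close upstream of its start in the sequences searched. This stretch is shown for that reason. Other forms of the motif were not sought, so their presence in these promoters is left undescribed. The letters CTTTGAT, or ATCAAAG on the other strand, were sought in the 250 bases before each start in RefSeq's promoters on GRCm38.p6. They were in 1 of 14 promoters of the 8 member genes with an entry, and in 1053 of 32851 promoters overall (3.21%). The Sp5 stretch is chr2:70474673-70474922 (+ strand), and the match to these letters, in capitals, begins 104 bases before the start.
Sp5: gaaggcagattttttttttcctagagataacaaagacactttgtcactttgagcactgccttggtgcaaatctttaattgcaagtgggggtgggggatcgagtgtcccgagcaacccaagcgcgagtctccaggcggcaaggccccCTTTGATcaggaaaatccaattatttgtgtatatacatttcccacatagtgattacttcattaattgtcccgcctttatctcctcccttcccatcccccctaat
The match describes these letters in this window and is not evidence of binding, and for the other members it says nothing about sites elsewhere.

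Apcdd1, a membrane protein that inhibits the pathway by binding Wnt and Lrp proteins, varied more between brains than between layers. Its level was 5.97, 4.12 and 5.05 RPKM in ULAs and 6.28, 2.30 and 5.94 RPKM in DLAs, lowest in brain 2 in both layers. The log2 difference was 0.12 (SE 0.17, 95% interval −0.26 to 0.51), positive in brain 2 and negative in brains 1 and 3. Tcf7l1, Tcf7l2 and Axin1 shared this split, with ULAs higher in brain 2 only, where the DLA library was the shallowest of the 6. The part of depth in that split was not tested. Apcdd1 is also known from endothelial cells of the brain, whose markers were at most 3.96 RPKM in sum in any library.

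**Figure D2:**
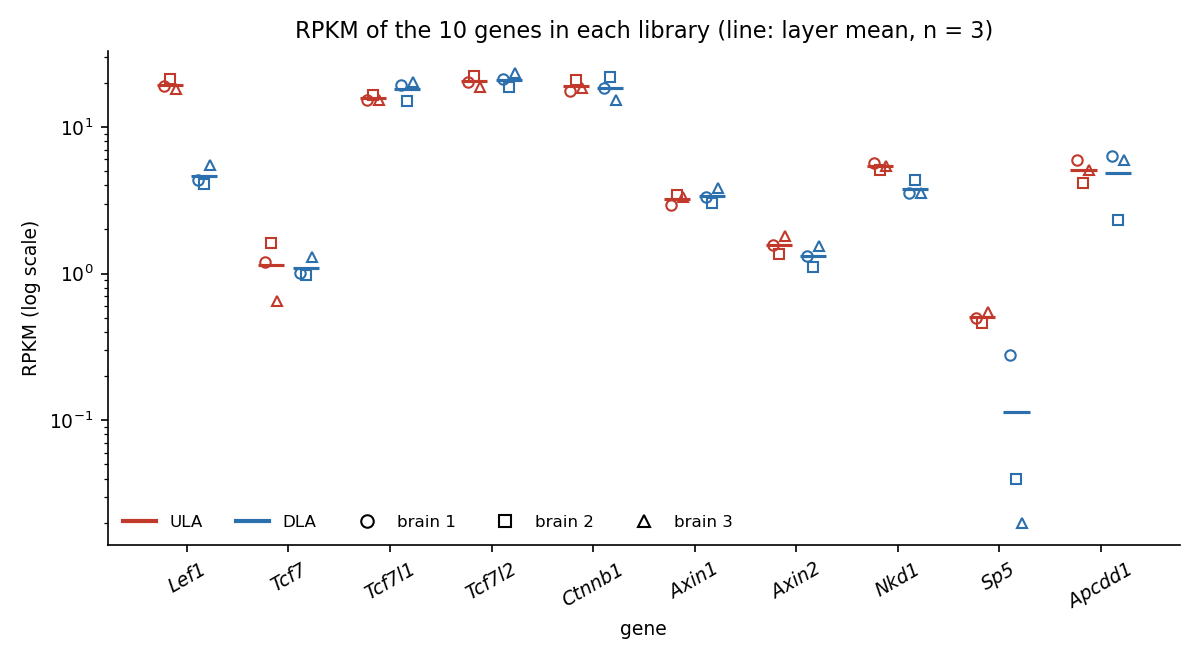
Points give the RPKM of each of the 10 genes in each library on a log axis, with red for ULAs, blue for DLAs, a shape for each brain and a line at the layer mean (n = 3). Lef1, Nkd1 and Sp5 have separate ULA and DLA points, and the remaining 7 genes overlap.

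In the order of levels, Tcf7l2, Lef1 and Ctnnb1 led in ULAs, each overlapping the next in its range of libraries, followed by Tcf7l1. Nkd1 and Apcdd1 came next and overlapped, then Axin1, then Axin2 and Tcf7, which overlapped, and last Sp5. In DLAs the leading genes were Tcf7l2, Ctnnb1 and Tcf7l1, whose ranges overlapped, and Lef1 stood lower, among Apcdd1, Nkd1 and Axin1, with overlap between each neighbour. Axin2, Tcf7 and Sp5 kept the last places. The plot of RPKM by gene shows Lef1 in the upper group of levels in ULAs and in the middle one in DLAs.

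Of the 10 genes, 9 passed the expression filter and 1, Sp5, did not. The limma comparison over all rows called 1 of the 9 higher in ULAs (Lef1), beside 0.714% of all tested rows, and 0 higher in DLAs, beside 0.914%, or 1.63% of rows in either direction. ULA values above all DLA values were found for 2 of the 9 (Lef1 and Nkd1), beside 6.59% of tested rows, and for Sp5, beside 6.41% of rows with a mean RPKM of 0.1 to 1, whereas DLA values above all ULA values were found for 0 of the 9, beside 9.27% of tested rows. Since these genes were chosen with the contrast in view, nothing is read from the counts. The median log2 difference of the 9 genes was 0.05, against −0.03 over all tested rows, and 8 of the 9 were within 0.5 of 0, as were 95.9% of all tested rows. The largest difference of the 9 was that of Lef1, and Nkd1 came next at 0.41.

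**Figure D3:**
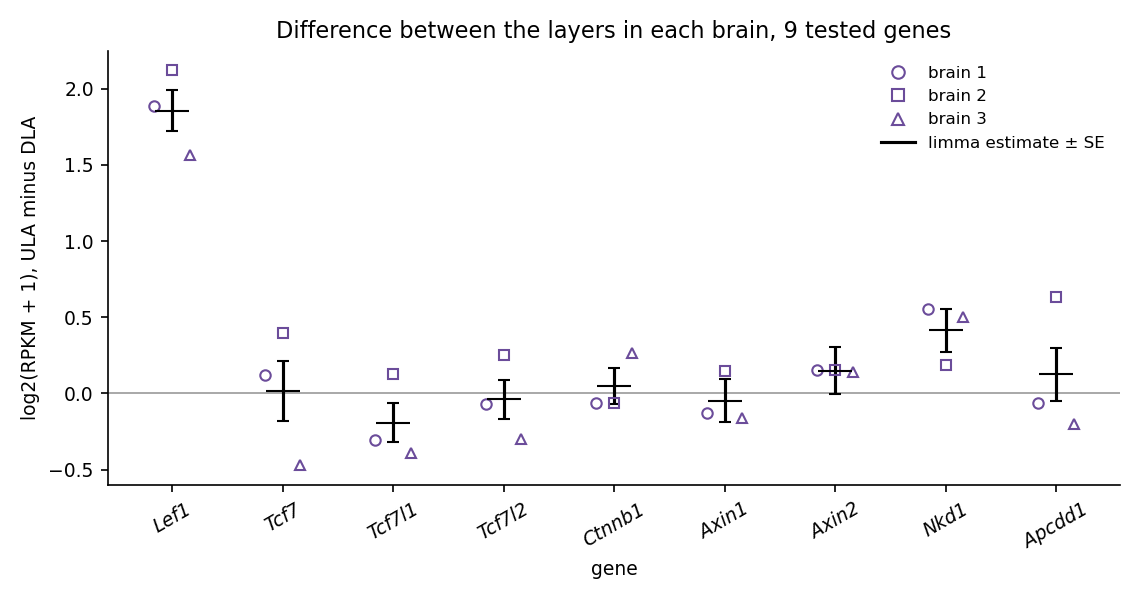
Each point is the ULA minus DLA difference of log2(RPKM + 1) in 1 brain for the 9 genes above the filter, and the bars give the limma estimate ± SE. Lef1 lies between 1.57 and 2.12 in the 3 brains, Nkd1 between 0.19 and 0.55, and the 3 points of Axin2 lie at 0.14 to 0.16.

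To place the set in its pathway, a list of 102 other Wnt pathway genes in 8 roles was read from the same fit. Of these, 59 passed the filter, 3 were called higher in ULAs (Dkk3, Tnfrsf19 and Ccnd1) and 3 higher in DLAs (Sfrp5, Aes and Ctbp1) at an adjusted p under 0.05, beside 0.714% and 0.914% of all tested rows. The median difference over the 59 was 0.07. Dkk3, Ccnd1 and Aes are in the layer-enriched lists that the study chose on these same libraries, so their directions are not independent evidence, and the list was itself drawn up with earlier results of these data known.

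No gene that makes or releases the signal was called. Of 19 Wnt ligands, only Wnt5b, Wnt7a and Wnt7b passed the filter, and 0 were called. Wnt7a, a ligand known for its role in the brain vasculature, was at 50.60, 58.97 and 54.89 RPKM in ULAs and 51.36, 62.43 and 43.45 RPKM in DLAs, a log2 difference of 0.08 (SE 0.11). Wnt5b, mostly a ligand of β-catenin-independent signaling, was at 2.02 ± 0.451 and 1.42 ± 0.219 RPKM, with a difference of 0.31 (SE 0.18). Wls, the carrier that brings Wnt proteins to the cell surface, was at 86.6 ± 9.54 and 98.1 ± 9.18 RPKM (log2 difference −0.18, SE 0.09). The RPKM of Wnt7a and of Wls was above that of each of the 10 genes in every library.

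Among 17 receptors and co-receptors, 13 passed the filter and 0 were called. Fzd9, the Frizzled mRNA with the highest mean over the 6 libraries although Fzd2 exceeded it in both layers of brain 2, varied mainly by brain, at 59.44, 10.15 and 44.28 RPKM in ULAs and 83.97, 14.58 and 48.81 RPKM in DLAs. It was lower in ULAs in 3 of 3 brains, with a log2 difference of −0.37 (SE 0.11, limma adjusted p = 0.150), and it was called when brain 3 was left out (adjusted p = 0.0169). The level in brain 2 was far below that of the other brains in both layers. Of the 11 R-spondins and genes of receptor turnover, 4 passed the filter and 0 were called. Lgr4, a receptor for R-spondins, was at 18.08, 21.35 and 20.82 RPKM in ULAs and 12.92, 12.05 and 17.41 RPKM in DLAs, with no overlap and a log2 difference of 0.49 (SE 0.13, limma adjusted p = 0.1003). This too was called without brain 3 (adjusted p = 0.00556). Calls were more frequent over all rows in that fit, with 426 higher in ULAs and 687 in DLAs, against 100 and 128 in the main fit. Ror1, Cby1 and Cd44 of the pathway list also gained calls there. Lgr6, a relative of Lgr4, was at 24.3 ± 3.33 and 21.7 ± 4.15 RPKM, with a difference of 0.16 (SE 0.12).

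Secreted antagonists split in direction. Dkk3, a divergent member of the Dickkopf family, was at 77.13, 61.06 and 65.25 RPKM in ULAs and 42.85, 39.56 and 44.40 RPKM in DLAs, without overlap. It was 1.60-fold higher in ULAs by the means, with a log2 difference of 0.66 (SE 0.10, limma adjusted p = 0.0123, and 0.000150 to 0.305 over the alternatives). Sfrp5, a soluble decoy for Wnt ligands, ran the other way at 0.87, 0.90 and 0.82 RPKM in ULAs and 3.50, 3.87 and 3.37 RPKM in DLAs. Sfrp5 was 4.15-fold higher in DLAs, with a log2 difference of −1.30 (SE 0.15, limma adjusted p = 0.00296, and 1.99e-05 to 0.300 over the alternatives), and the 3 brains were nearly alike. Sfrp5 was the called gene of the list with the largest difference, at a level below that of Lef1 in either layer. The oligodendrocyte markers were also higher in DLAs, and the part of those cells in the Sfrp5 level was not tested. Of the 13 antagonists, 8 were below the filter.

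The cytoplasmic transducers and the destruction complex, 13 tested of 14, had 0 calls and a median difference of 0.06. Csnk1a1, a kinase that primes β-catenin for destruction, was at 59.9 ± 1.62 RPKM in ULAs and 57.3 ± 6.21 RPKM in DLAs, a difference of 0.07 (SE 0.10). Gsk3a, one of the Gsk3 kinases, was at 4.77, 2.05 and 5.32 RPKM in ULAs and 7.09, 1.73 and 7.6 RPKM in DLAs, and differed more by brain than by layer (log2 difference −0.26, SE 0.16).

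Of the 14 nuclear co-factors, 13 were tested, 0 were called higher in ULAs and 2, Aes and Ctbp1, higher in DLAs. The related co-repressors Tle1, Tle2, Tle3, Tle4 and Ctbp2 were not called, with log2 differences of −0.23, 0.04, −0.01, 0.10 and 0.03. Aes, a short Groucho-related protein, was at 54.98, 36.65 and 56.71 RPKM in ULAs and 96.31, 60.23 and 88.03 RPKM in DLAs, a log2 difference of −0.71 (SE 0.10, limma adjusted p = 0.00736, and 6.63e-05 to 0.335 over the alternatives). Ctbp1, a co-repressor, was at 20.18, 7.35 and 24.77 RPKM and 45.26, 10.14 and 36.47 RPKM, lower in ULAs in 3 of 3 brains although the layers overlapped. Its difference was −0.69 (SE 0.14, limma adjusted p = 0.0464, and 0.000773 to 0.688 over the alternatives). Neither was called without the brain in the model, where the adjusted p was 0.335 for Aes and 0.688 for Ctbp1. Both were lowest in brain 2, as was Fzd9. These DLA calls stand beside oligodendrocyte markers that were also higher in DLAs, with summed levels of 177.6 to 280.6 RPKM against 87.1 to 179.0 RPKM, and the part of those cells in them was not tested.

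Other genes known as targets of the pathway in some tissues had the highest median difference of the 8 roles, 0.50 over 6 tested of 12. Of these, 2 were called higher in ULAs, beside 0.714% of all tested rows. Cd44 (0.59) and Myc (0.49) were higher in ULAs but not called. Ephb3 (−0.03) and Bambi (−0.18) went the other way and were not called, and 6 targets were below the filter. Tnfrsf19 (Troy), a receptor of the TNF family, was at 187.21, 171.34 and 171.38 RPKM in ULAs and 128.76, 110.28 and 130.61 RPKM in DLAs, without overlap. The log2 difference was 0.52 (SE 0.10, limma adjusted p = 0.0276, and 0.00109 to 0.339 over the alternatives). Ccnd1, cyclin D1, was at 6.57, 5.68 and 5.15 RPKM in ULAs and 4.18, 3.05 and 2.99 RPKM in DLAs, also without overlap, and differed by 0.63 (SE 0.13, limma adjusted p = 0.0484, and 0.0203 to 0.367 over the alternatives). Ccnd1 is close to the threshold and lost its call in 6 of 9 alternatives. With no brain in the model, the adjusted p was 0.0929 for Dkk3, 0.150 for Tnfrsf19 and 0.237 for Ccnd1, and of the 6 called genes of the list Sfrp5 alone was called in that fit.

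**Figure D4:**
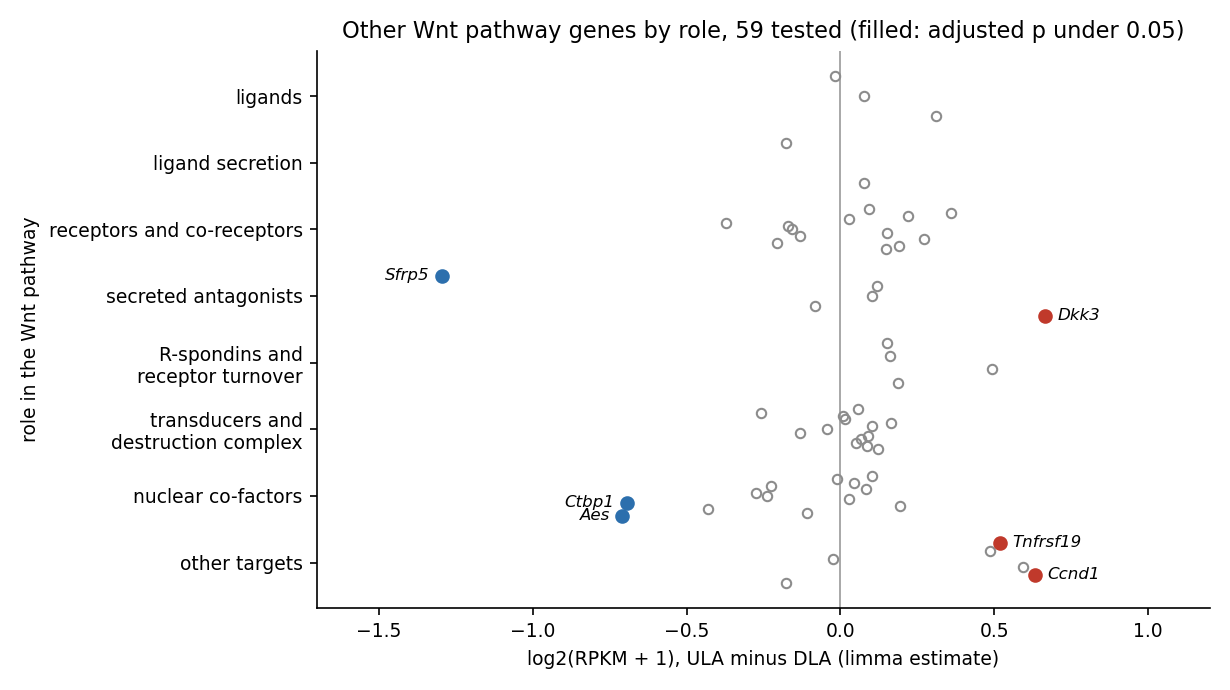
Each point is the limma estimate of the ULA minus DLA difference of log2(RPKM + 1) for 1 of the 59 tested Wnt pathway genes, placed by role. Filled points are the 6 genes with an adjusted p under 0.05, and the open ones lie between −0.43 and 0.59, with no filled point among ligands, receptors or transducers.

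Lef1 was then compared with all other tested rows for likeness of its profile, as the distance between log2(RPKM + 1) values over the 6 libraries after each row was centred on its own mean. Among 13998 rows the 5 nearest with a RefSeq accession were Cntnap2, Chrdl1, Eogt, Nptx2 and Hmgcll1, with distances of 0.445, 0.473, 0.484, 0.522 and 0.559. Their Pearson's r with Lef1 over the 6 libraries, which share 3 brains and fall into 2 layers, was between 0.97 and 0.99. Cntnap2, a cell adhesion molecule of the neurexin family, was at 3.79, 3.72 and 4.98 RPKM in ULAs and 0.39, 0.34 and 0.43 RPKM in DLAs. Hmgcll1, a lyase of ketone body metabolism, was at 5.22, 4.16 and 4.70 RPKM and 0.88, 0.60 and 1.52 RPKM. Chrdl1, an extracellular BMP antagonist, was near Lef1 at a higher level, 89.5 ± 8.27 and 20.1 ± 3.91 RPKM. Eogt, which adds GlcNAc to EGF domains, was at 126 ± 13.8 and 41.8 ± 4.32 RPKM, and Nptx2, a secreted pentraxin, at 39.1 ± 2.59 and 10.2 ± 1.45 RPKM.

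Genes of the Wnt pathway were farther from Lef1 than these. Dkk3 came at rank 68 of the 13998 rows, Cd44 at 95, Ccnd1 at 103, Tnfrsf19 at 143, Lgr4 at 163 and Myc at 315. Nkd1 was at rank 336 and Axin2 at 2315, with other genes of the pathway list between them. Nkd1 moved in the same direction as Lef1 with a smaller range, and 2.39% of rows were nearer to Lef1 than it was. The distance is small only where the size of the change is alike, so a gene that changes in parallel by less is ranked lower.

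**Figure D5:**
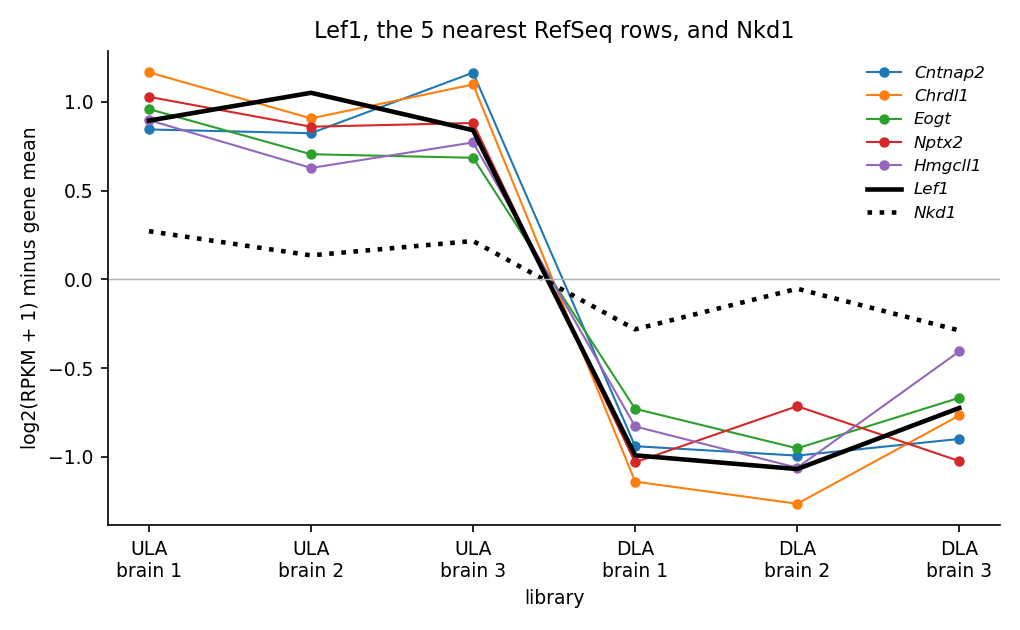
Lines give log2(RPKM + 1) minus the mean of each gene over the 6 libraries for Lef1 (black), its 5 nearest RefSeq rows (colours) and Nkd1 (dotted). The nearest rows follow Lef1 from ULAs down to DLAs, and Nkd1 follows with a smaller step.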

How the data were processed

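Per the labels and the study's methods, cDNA of sorted cells (SMART-Seq v4) was turned into Nextera XT libraries, and 36 bases were read from 1 end. The authors deposited 1 table of RPKM values, truncated to 2 decimals, for 43383 rows, 22829 of them with a RefSeq accession and 15420 at 0 in all libraries. The submitters' processing notes name bcl2fastq 1.8.4, CASAVA 1.8.2 and the build mm9. The aligner and the counting program are not given in the sources used here. Coordinates of genes are those of the table, and sequences come from GENCODE and RefSeq on GRCm38. No protein sequences or coordinates carried between builds were used.

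Reads per row were recovered from the RPKM steps and serve for precision and, for Sp5, for the ratio of the layers. RPKM times length summed to 1.03 to 1.04 M per library. The 13999 rows that averaged 1 RPKM or more were fitted on log2(RPKM + 1) by limma 3.58.1 (R 4.3.3; trended eBayes). The model held the brain and the layer, and 2-sided p-values were adjusted over all 13999 rows by Benjamini-Hochberg. Differences are ULA minus DLA, and fold changes on this scale understate those of low genes. The replicate number was taken as the brain, because the study's supplementary lists give these values under brain numbers and because the deviations of same-numbered libraries from the mean of their layer correlated (r of 0.42, 0.33 and 0.34 across genes, against −0.20 to −0.16 for other pairs).

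The 10 genes, the pathway list and the marker lists were chosen with earlier results of these data known. Genes described in full are the 10, every called gene of the pathway list, the most abundant and the most different tested gene of each role, and the 5 RefSeq rows nearest to Lef1. Other genes are named only beside these. The lists of markers for pericytes, precursors of oligodendrocytes, microglia, neurons and meningeal fibroblasts had 2, 2, 1, 1 and 1 tested genes, with 1 call (Rgs5, higher in ULAs), and 1 of 10 astrocyte markers was called (Gfap, higher in DLAs). The fit was also run on simulated data with known changes, but its outcome is not reported here and nothing is read from it. The 10 alternatives are in the closing section, and other experiments of the study were not analysed here. Python 3.11.15, numpy 2.4.6, pandas 2.3.3, scipy 1.17.1 and matplotlib 3.10.9 were also used.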

Additional observations from a re-analysis of the deposited data

How the results depend on the processing

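The limma fit was repeated without the replicate block of brains, with a pseudocount of 0.1, with no filter, with a mean RPKM of at least 5, with median centring, with quantile normalization, with a loess correction for mRNA length and without each brain. The called differences followed over these fits, those of Lef1, Sfrp5, Dkk3, Aes, Ctbp1, Ccnd1 and Tnfrsf19, did not change sign. Other called rows were not followed. Among differences near 0, those of Tcf7 (−0.17 to 0.26), Tcf7l2 (−0.18 to 0.09), Ctnnb1 (−0.06 to 0.11), Axin1 (−0.15 to 0.01), Apcdd1 (−0.13 to 0.29), Wnt7a (−0.05 to 0.17) and Csnk1a1 (−0.02 to 0.17) crossed 0. The log2 difference of Lef1 stayed between 1.73 and 2.05 and that of Nkd1 between 0.35 and 0.53. The number of rows called higher in ULAs was 100, and 23 without the block, 0 with no filter and 104 to 426 with a brain left out. Higher in DLAs were 128 rows, and 18 without the block, 0 with no filter, 78 after the length correction and 126 to 687 with a brain left out. With no filter, 27963 rows were tested, and 1124 and 1675 had an unadjusted limma p under 0.05. Of the Wnt pathway list, 3 genes were called higher in ULAs, but 0 without the block, 0 with no filter, 1 after the length correction and 0 to 6 with a brain left out, the 0 without brain 1 and the 6 without brain 3. In DLAs 3 were called, and 1 without the block, 0 with no filter and 2 to 5 with a brain left out, the 5 without brain 3. Of the 10 genes, 1 was called and 0 with no filter, from which nothing is read because they were chosen on this contrast. The Lef1 share of LEF/TCF RPKM was 34.1% to 34.4% in ULAs and 10.1% to 10.7% in DLAs with a brain left out. The Sp5 ratio without a brain was added after the DLA value of brain 1 was seen, and was 2.62 to 13.2. Axin2 moved from 0.15 to 0.24 with the smaller pseudocount and to 0.09 after the length correction. The median over all rows moved by less than 0.1. With 3 brains and 2 to 92 reads per library, the levels of Sp5 and Tcf7 are the least precise.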
